A study of Homo sapiens with 6 samples.

Results

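Messenger RNAs of 10 genes of the interleukin-1 (IL-1) family and the inflammasome were followed in MDA-MB-231 cells after knockdown of SF3B6. They were chosen by symbol: the cytokines IL1A, IL1B and IL18, the receptor chains IL1R1 and IL1RAP, the inflammatory caspases CASP1 and CASP4, the adaptor PYCARD, and the gasdermins GSDMD and GSDME. All 10 were among the 39323 genes of the deposited count table, and all 10 passed the low-count filter in 6 of 6 libraries. MDA-MB-231 is a human triple-negative breast cancer line, and SF3B6 (p14) is a splicing factor of the U2 snRNP that sits at the intron branch point. The data are poly(A) RNA-seq of 3 siSF3B6 libraries, whose cells received a duplex that targets SF3B6, and 3 siNC libraries, whose cells received a non-targeting one. All cells carried a lipid-transfected duplex, and 1 targeting duplex was used. The design text calls the replicates biological without naming separate cultures, so each p-value reflects only the variation among these 6 libraries.

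IL-1 alpha and IL-1 beta are cytokines that bind the receptor IL1R1, which recruits the accessory chain IL1RAP and signals through MYD88 and IRAK kinases to NF-kB and AP-1. IL-1 beta and IL-18 are made as inactive precursors, while the IL-1 alpha precursor is itself active. An inflammasome is a sensor protein joined through the adaptor PYCARD (ASC) to caspase-1, which cleaves both precursors. Caspase-1 and caspase-4 also cleave gasdermin D, whose N-terminal part forms pores in the plasma membrane. Gasdermin E is a pore-former of the same family. This machinery is best known from macrophages. Transcript levels say nothing of cleavage or secretion.

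Gene totals were 28504091 to 38546037 reads per library. SF3B6 had 22.5, 25.0 and 21.3 CPM (reads scaled to library size with TMM factors) in siSF3B6 replicates 1 to 3, against 86.3, 80.4 and 102 CPM in siNC replicates 1 to 3, or 25.6% of the siNC level. The libraries did not separate by group alone. Mitochondrially encoded genes took 10.6% to 11.8% of reads in siSF3B6 and 3.38%, 3.93% and 9.07% in siNC replicates 1, 2 and 3. Genes with 1 to 9 reads numbered 7877 to 8325 in siSF3B6, and 13952, 14956 and 7731 in siNC. On both measures siNC replicate 3 stood apart from the other siNC libraries and near the siSF3B6 libraries, so values of the 10 genes are also given without it. Calls lost with it as the only control are named for the 10 genes and for the reported list genes that the naming rule took. A fit with 1 control takes its variation from the siSF3B6 group. The 6 markers chosen for MDA-MB-231 cells summed to 5415 to 5644 CPM in siSF3B6 and 4771 to 5357 CPM in siNC, without overlap. CAV1 was higher in every siSF3B6 library (807 to 882 CPM in siSF3B6, 597 to 642 CPM in siNC). So was PLAU (275 to 309 CPM in siSF3B6, 213 to 230 CPM in siNC). CD44 was higher by a small margin (567 to 580 CPM in siSF3B6, 508 to 566 CPM in siNC). VIM and AXL overlapped, and SPARC was low, at 0.748 to 3.81 CPM in siSF3B6 and 0.448 to 0.860 CPM in siNC. Of 6 luminal markers, 4 averaged at least 1 CPM, and the sum was 1036 to 1218 CPM in siSF3B6 and 1025 to 1069 CPM in siNC, nearly all of it KRT8. ERBB3 (7.93 to 9.61 CPM in siSF3B6, 4.87 to 6.28 CPM in siNC), GATA3 (13.7 to 14.9 CPM in siSF3B6, 8.93 to 11.1 CPM in siNC) and CDH1 (6.19 to 7.48 CPM in siSF3B6, 4.02 to 5.23 CPM in siNC) were higher in every siSF3B6 library. The hormone receptor genes ESR1 and PGR were at 0.352 CPM or less in every library. Of 8 myeloid markers, 3 averaged at least 1 CPM (CD14, CSF1R and LYZ). Their sum over the list was 18.9 to 24.6 CPM in siSF3B6 and 17.2 to 22.3 CPM in siNC. The pan-leukocyte marker PTPRC stood at 0.578 to 1.47 CPM in siSF3B6 and 0.480 to 0.695 CPM in siNC, and MPO was at 0 reads in all but 1 library of each group. LYZ had 2, 114 and 42 reads in siSF3B6 replicates 1 to 3, and 17, 24 and 5 in siNC replicates 1 to 3. S100A8 had 1, 72 and 14 reads against 11, 17 and 0. For both genes, and for SPARC, siSF3B6 replicate 2 was the highest library. The part of the mitochondrial share, the low-count genes or these markers in the results was not tested.

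Of the 10 genes, 3 rose (IL1A, IL1B and IL1RAP), 2 fell (GSDMD and GSDME) and 5 did not pass the test (IL18, IL1R1, CASP1, CASP4 and PYCARD) in siSF3B6 against siNC. The test was edgeR's quasi-likelihood test with Benjamini-Hochberg adjustment over all 16869 genes tested, at a threshold of 0.05. By that rule 40.8% of all genes were called, 20.8% higher and 20.0% lower, so a share of 5 in 10 is near the background. The median log2 fold change of the 10 genes was 0.13, against 0.00093 over all genes tested. Called rises of at least 2-fold were less common, at 2.26% of all genes tested, and IL1A and IL1B were among them. The 10 genes were chosen with earlier results of these data known, so this is no independent evidence of a rise. The CPM ranges of the groups did not overlap for 6 of the 10 genes, against 52.1% of all genes tested.

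**Figure D1:**
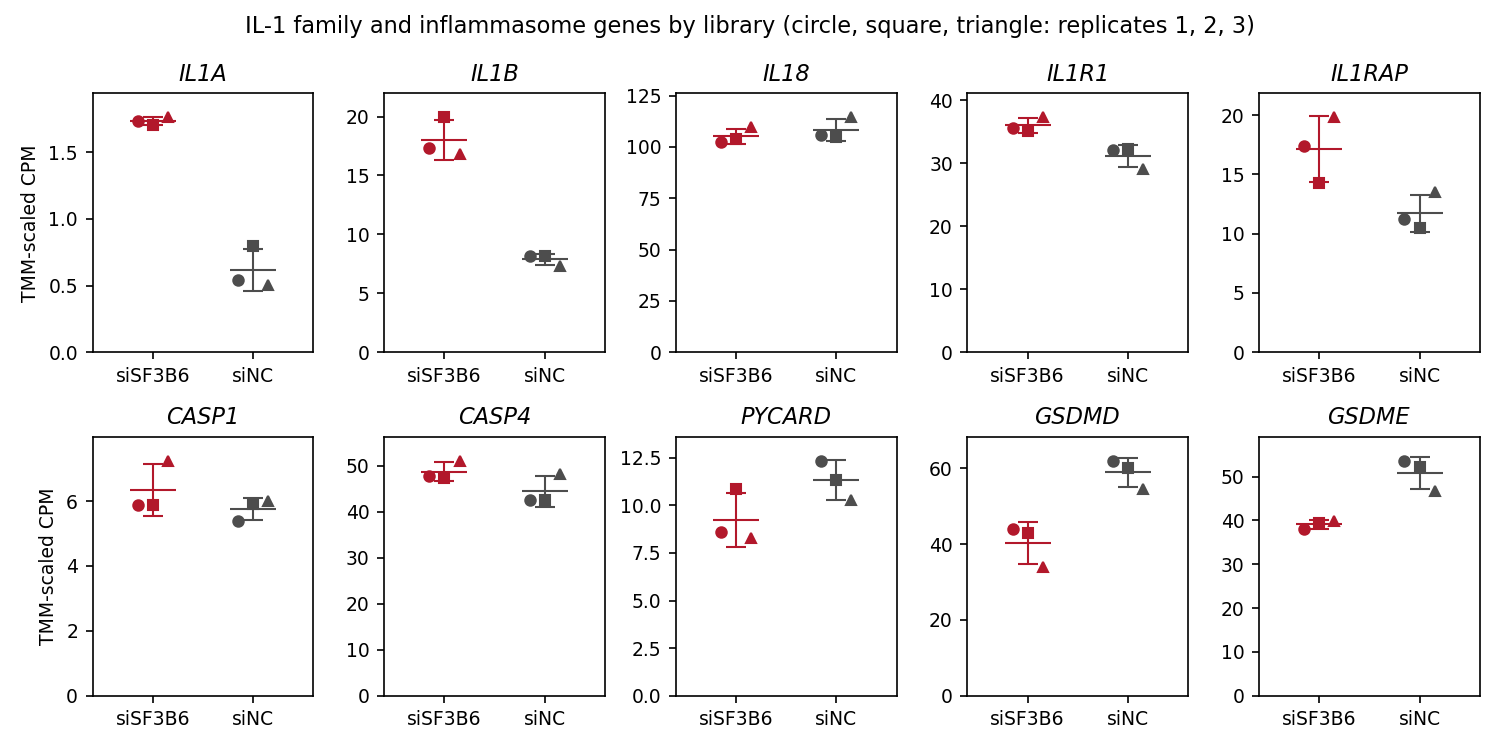
TMM-scaled CPM (vertical axes from 0) of each of the 10 genes in the 3 siSF3B6 libraries (red, left) and the 3 siNC libraries (grey, right). Symbols are libraries (circle, square and triangle for replicates 1, 2 and 3) and bars are means with SD. IL1A, IL1B, IL1R1 and IL1RAP lie higher in all 3 siSF3B6 libraries, GSDMD and GSDME lower, and the other 4 genes overlap.

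The 2 genes with the largest changes, IL1A and IL1B, are neighbours in the IL-1 gene cluster of chromosome 2. In GENCODE 29 on GRCh38, IL1A (ENSG00000115008) lies at chr2:112773915-112784590 and IL1B (ENSG00000125538) at chr2:112829751-112836903, both on the minus strand. The 250 bases before the RefSeq start of each are shown because these are the members that rose together most. They were taken at chr2:112784494-112784743 for IL1A (the more upstream of 2 listed starts) and at chr2:112836780-112837029 for IL1B (GRCh38.p14, minus strand, 5′ to 3′), with AP-1 matches in capitals.
IL1A: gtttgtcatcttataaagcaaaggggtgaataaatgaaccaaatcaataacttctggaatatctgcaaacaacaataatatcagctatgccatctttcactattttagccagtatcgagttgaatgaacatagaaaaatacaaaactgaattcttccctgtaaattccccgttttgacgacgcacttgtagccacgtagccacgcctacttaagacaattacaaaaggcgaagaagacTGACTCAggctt
IL1B: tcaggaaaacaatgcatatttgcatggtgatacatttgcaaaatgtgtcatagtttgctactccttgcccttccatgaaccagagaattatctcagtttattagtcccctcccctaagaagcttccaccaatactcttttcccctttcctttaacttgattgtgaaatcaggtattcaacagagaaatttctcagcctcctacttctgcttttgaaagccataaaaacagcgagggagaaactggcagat
A script searched windows from 250 bases before to 50 bases after each start, on both strands, for an AP-1 motif (TGANTCA), a loose kappa-B motif (GGG and CC with any 5 bases between), a stricter kappa-B motif added later (GGGA and TTCC with any 2 bases between) and an interferon response motif (GAAA and GAAA with any 2 bases between). Among 35116 listed windows these were found in 7.71%, 58.7%, 1.61% and 3.57%. The IL1A window held 2 AP-1 matches, TGACTCA at 12 to 6 bases before the start and TGAGTCA at 39 to 45 bases after it, and none of the other motifs. The IL1B window held none of the 4 motifs, which says only that these letters are not in this window. Both windows were poor in G and C, with 39.7% for IL1A and 42.3% for IL1B, against a median of 58.7% over all listed windows. In the IL1RAP window (GC 73.7%) 5 loose kappa-B matches were found, of which some overlap, and no match to the other motifs. Such matches were not particular to genes that rose. The window of GSDME, which fell, held 8 (GC 77%), of which some overlap or are the same bases matched on both strands. PYCARD had 4, a single IL1R1 window had 4, and CASP4 had 1. Windows were listed for 7 of the 10 genes.

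IL1B encodes the secreted cytokine IL-1 beta. It had 17.3, 20.0 and 16.8 CPM in siSF3B6 replicates 1 to 3, against 8.13, 8.17 and 7.35 CPM in siNC replicates 1 to 3. Every siSF3B6 library stood above every siNC library, and the distance between the groups was several times the spread within either. Its log2 fold change was 1.20 (SE 0.107, n = 3 per group, edgeR adjusted p = 4.64e-06), a 2.29-fold rise with a 95% interval of 1.95 to 2.69. Without siNC replicate 3 it was 1.15, and with only that control 1.28 on the log2 scale. Only 1.31% of all genes tested had a larger log2 fold change.

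IL1A encodes IL-1 alpha, the IL-1 that is active without caspase-1. It was rare: 51, 63 and 54 reads in siSF3B6 and 17, 24 and 17 reads in siNC, or 1.73, 1.70 and 1.76 CPM against 0.544, 0.794 and 0.506 CPM. The 3 siSF3B6 values lay close together and all above the siNC values. Its log2 fold change was 1.50 (SE 0.248, n = 3 per group, edgeR adjusted p = 0.000393), a 2.82-fold rise with a wide 95% interval of 1.95 to 4.08. It was 1.37 without siNC replicate 3 and 1.76 with only that control. With so few reads the size of the IL1A rise is less certain than that of IL1B, and its ratio to IL1B did not separate the groups. In FPKM (fragments scaled by gene length and library size), that ratio was 0.149, 0.128 and 0.157 in siSF3B6 and 0.0996, 0.143 and 0.104 in siNC (exact two-sided permutation test of the log2 ratio, p = 0.2).

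IL18, the third cytokine, did not follow IL1A and IL1B. It had 103, 104 and 109 CPM in siSF3B6, against 106, 105 and 115 CPM in siNC, and the groups overlapped. Its log2 fold change was -0.04 (SE 0.076, n = 3 per group, edgeR adjusted p = 0.681), with a 95% interval of 0.866-fold to 1.09-fold. Leaving out siNC replicate 3 gave 0.0017 (adjusted p = 0.988). After an offset for GC content and length, chosen once the data had been seen, it was -0.20 (edgeR adjusted p = 0.00522). Per length, IL18 was by far the most abundant of the 10 genes, with 33.4 ± 1.13 FPKM in siSF3B6 and 35.7 ± 2.12 FPKM in siNC (SD, n = 3 each). The FPKM of IL1B was 0.133 to 0.167 times that of IL18 in siSF3B6 libraries and 0.0556 to 0.0673 times in siNC libraries. The smallest p that an exact two-sided permutation test of 3 against 3 values can give is 0.1, and the log2 IL1B to IL18 ratio reached it.

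**Figure D2:**
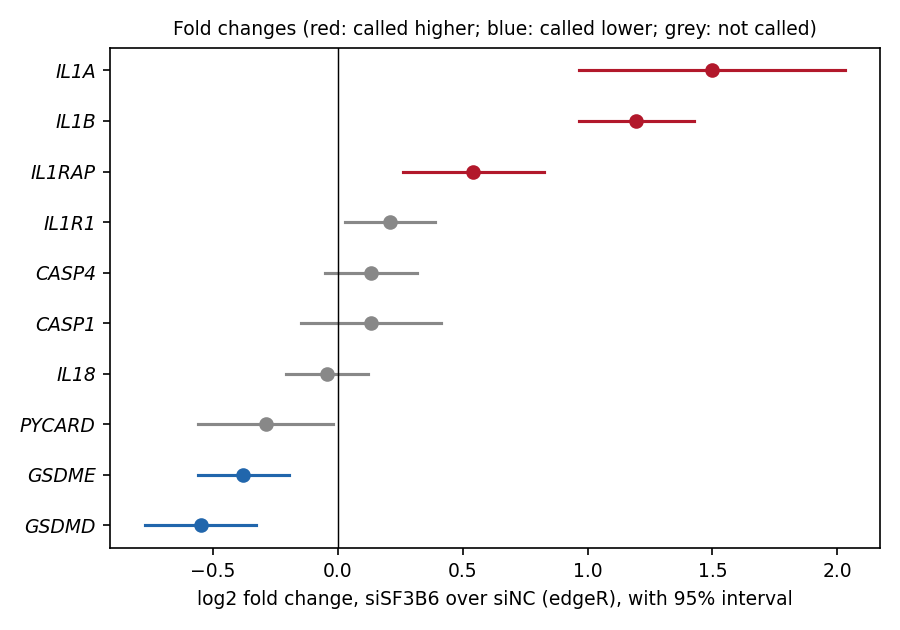
Log2 fold changes of the 10 genes, siSF3B6 over siNC, from edgeR (points) with 95% intervals (lines), in order of size. IL1A and IL1B lie above 0.96 over their whole interval, GSDMD and GSDME lie wholly below 0, and the grey points of CASP1, CASP4 and IL18 have intervals that span 0. The grey points of IL1R1 (0.0274 to 0.389) and PYCARD (-0.559 to -0.0171) have intervals that exclude 0, though neither gene was called. The intervals are not adjusted for the number of genes.

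Of the receptor chains, IL1RAP rose and IL1R1 did not pass the threshold. IL1RAP, the signalling partner that IL1R1 shares with the receptors for IL-33 and IL-36, had 17.3, 14.3 and 19.8 CPM in siSF3B6, against 11.2, 10.5 and 13.5 CPM in siNC. The groups did not overlap, but siSF3B6 replicate 2 and siNC replicate 3 were near each other. IL1RAP had 0.54 as its log2 fold change (SE 0.131, n = 3 per group, edgeR adjusted p = 0.00487), or 1.46-fold with a 95% interval of 1.20 to 1.77. With siNC replicate 3 as sole control it was 0.33 and the call was lost (adjusted p = 0.244), and without that library it was 0.66. IL1RAP shares 4.63% of its exonic bases with a gene on the same strand.

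IL1R1, the ligand-binding chain, had 35.6, 35.1 and 37.3 CPM in siSF3B6, against 32.1, 32.3 and 29.1 CPM in siNC. All 3 siSF3B6 libraries were higher, by a small margin. Its log2 fold change was 0.21 (SE 0.084, n = 3 per group, edgeR adjusted p = 0.0622), with a 95% interval of 1.02-fold to 1.31-fold that is not adjusted for the number of genes. Leaving out siNC replicate 3 gave 0.16 (adjusted p = 0.136). Per length IL1R1 exceeded IL1RAP in every library, with 4.17 ± 0.129 FPKM against 1.23 ± 0.200 FPKM in siSF3B6 and 3.75 ± 0.182 FPKM against 0.870 ± 0.125 FPKM in siNC (SD, n = 3 each).

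The inflammatory caspases showed no call. CASP1, the caspase of the canonical inflammasome, had 5.88, 5.87 and 7.25 CPM in siSF3B6, against 5.38, 5.92 and 6.01 CPM in siNC. CASP4, which senses cytosolic lipopolysaccharide, had 47.8, 47.2 and 51.1 CPM in siSF3B6, against 42.5, 42.5 and 48.2 CPM in siNC. For both genes siNC replicate 3 lay within the siSF3B6 range and the groups overlapped. Log2 fold changes were 0.13 for CASP1 (SE 0.131, adjusted p = 0.446) and 0.13 for CASP4 (SE 0.085, adjusted p = 0.228; edgeR, n = 3 per group). The 95% intervals were 0.902-fold to 1.33-fold and 0.967-fold to 1.24-fold, so a 2-fold change of either lies outside them. Leaving out siNC replicate 3 gave 0.17 for CASP1 (adjusted p = 0.372) and 0.20 for CASP4 (adjusted p = 0.0684). CASP1 was the scarcer one per length, at 0.221 to 0.256 of the FPKM of CASP4 in siSF3B6 libraries and 0.225 to 0.251 in siNC libraries. CASP1 and CASP4 lie in the caspase cluster of chromosome 11, beside the near-copies CASP5 and CARD16, so reads may have been split between them in counting.

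PYCARD, the ASC adaptor that joins sensors to caspase-1, had 8.60, 10.9 and 8.27 CPM in siSF3B6, against 12.4, 11.3 and 10.3 CPM in siNC. Replicate 2 of siSF3B6 overlapped the siNC range. For PYCARD the log2 fold change was -0.29 (SE 0.126, n = 3 per group, edgeR adjusted p = 0.0828). It was called in 7 of 20 alternatives, among them without siNC replicate 3 (-0.35, adjusted p = 0.0448) and without siSF3B6 replicate 2 (-0.42, adjusted p = 0.0221). The GC and length offset gave -0.06 (adjusted p = 0.663), and the PYCARD transcript is GC-rich (61.7%). PYCARD shares 59.7% of its exonic bases with PYCARD-AS1 on the opposite strand, and the strand setting of the counting is not given in the sources used here. PYCARD-AS1 itself had 17 to 18 reads in siSF3B6 and 13 to 19 reads in siNC.

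Both gasdermins fell. GSDMD, the pore-former cut by the inflammatory caspases, had 44.0, 42.9 and 33.9 CPM in siSF3B6, against 62.1, 60.0 and 54.7 CPM in siNC. Every siSF3B6 library was below every siNC library, and replicate 3 was the lowest in each group. GSDMD had -0.55 as its log2 fold change (SE 0.103, n = 3 per group, edgeR adjusted p = 0.000928), a level 0.684 times that in siNC with a 95% interval of 0.586 to 0.797. The GC and length offset gave -0.27 (adjusted p = 0.00185), and GSDMD has the most GC-rich transcript of the 10 genes, at 64.8%. With siNC replicate 3 as sole control it was -0.45 and the call was lost (adjusted p = 0.0684), and without that library it was -0.60.

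GSDME, which encodes the pore-former gasdermin E, had 38.0, 39.4 and 39.9 CPM in siSF3B6, against 53.7, 52.1 and 46.6 CPM in siNC. The siSF3B6 values were tightly grouped below the siNC values, of which replicate 3 was the nearest. GSDME had -0.38 as its log2 fold change (SE 0.084, n = 3 per group, edgeR adjusted p = 0.00295), a level 0.770 times that in siNC with a 95% interval of 0.679 to 0.873. The offset for GC content and length gave -0.44 (adjusted p = 0.000185). With siNC replicate 3 as sole control it was -0.27 and the call was lost (adjusted p = 0.184), and without that library it was -0.43. The FPKM of GSDMD was 1.44 to 1.96 times that of GSDME in siSF3B6 and 1.95 to 1.99 times in siNC (exact two-sided permutation test of the log2 ratio, p = 0.3).

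**Figure D3:**
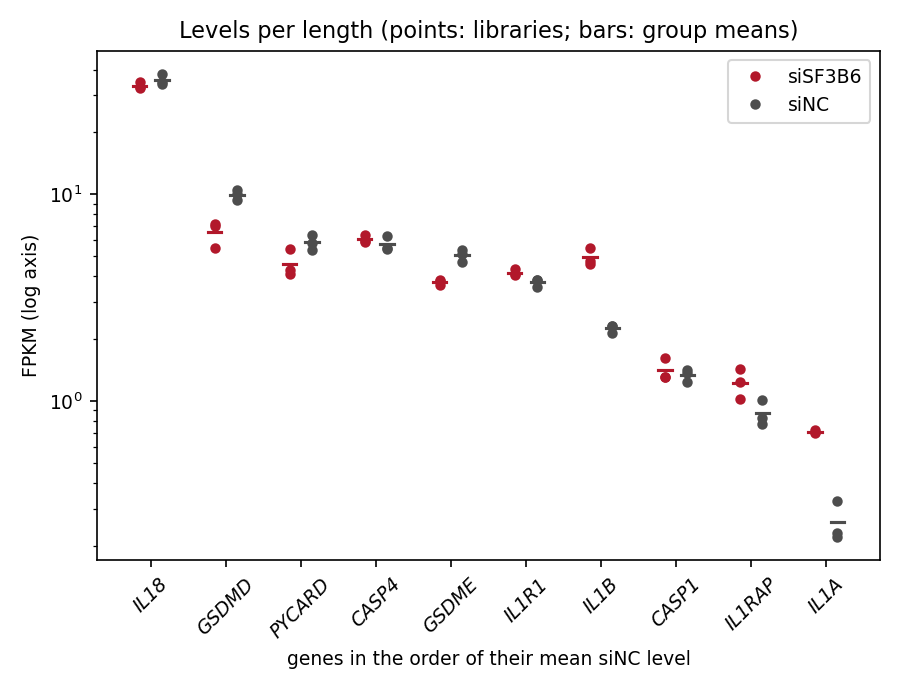
FPKM (log axis) of the 10 genes, ordered by their mean siNC level, in siSF3B6 libraries (red, left of each pair) and siNC libraries (grey, right); points are libraries and bars are group means. IL18 stands alone at the top near 33.4 and 35.7 FPKM, IL1A at the bottom, and IL1B lies at 4.95 FPKM in siSF3B6 and 2.24 FPKM in siNC.

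Per length, the levels ran in the order IL18, GSDMD, CASP4, IL1B, PYCARD, IL1R1, GSDME, CASP1, IL1RAP and IL1A in siSF3B6, from 33.4 down to 0.710 FPKM. In siNC the order was IL18, GSDMD, PYCARD, CASP4, GSDME, IL1R1, IL1B, CASP1, IL1RAP and IL1A, from 35.7 down to 0.260 FPKM. IL1B stood at 4.95 ± 0.474 FPKM in siSF3B6, the fourth of the 10, and at 2.24 ± 0.107 FPKM in siNC, the seventh (SD, n = 3 each). In siSF3B6 the libraries of neighbours in the order overlapped for GSDMD and CASP4, IL1B and PYCARD, PYCARD and IL1R1, and CASP1 and IL1RAP. In siNC they overlapped for PYCARD and CASP4 only. IL18 was more abundant than 93.2% of all genes tested and IL1A more abundant than 20.5%, by mean FPKM over the 6 libraries. Apart from IL1A and IL1B, the genes lie, in GENCODE 29 on GRCh38, at chr2:102064544-102179874 (IL1R1), chr3:190514051-190659750 (IL1RAP), chr11:112143251-112164117 (IL18), chr11:105025443-105035250 (CASP1), chr11:104942866-104969436 (CASP4), chr16:31201485-31203450 (PYCARD), chr8:143553207-143563062 (GSDMD) and chr7:24698351-24758113 (GSDME).

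The genes around these 10 were counted from 7 further lists that hold 89 genes. Of 8 other IL-1 family ligands and antagonists, 1 was tested and 0 were called; over all genes tested 20.8% were called higher and 20.0% lower. That 1 was IL1RN, the receptor antagonist, with 0.510, 0.568 and 0.359 CPM in siSF3B6, against 0.832, 1.03 and 0.625 CPM in siNC. The groups did not overlap, in 11 to 31 reads per library, and the log2 fold change of -0.77 (SE 0.316) did not pass (edgeR adjusted p = 0.0673). IL33, IL36A, IL36B, IL36G, IL36RN, IL37 and IL1F10 were under the filter. IL1RN was named after its values were seen. It was called lower in 3 alternatives: without siNC replicate 3, with library size scaling only and with the replicate block.

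Of 9 other receptors and decoys, 5 were tested, 1 rose and 1 fell, near the share of 40.8% called over all genes tested, with a median log2 fold change of -0.08. SIGIRR, an inhibitory member of the receptor family, had 6.50, 5.76 and 5.06 CPM in siSF3B6, against 11.1, 12.1 and 10.6 CPM in siNC, a log2 fold change of -0.96 (SE 0.123, edgeR adjusted p = 5.91e-05). IL1RAPL1, a relative of IL1RAP known as a synaptic protein, had 3.71, 3.92 and 4.48 CPM in siSF3B6, against 1.54, 1.89 and 1.76 CPM in siNC, a log2 fold change of 1.22 (adjusted p = 9.48e-05). For both, the groups were well apart. IL1RL1, IL18R1, IL18RAP and IL1RAPL2 were under the filter, so neither chain of the IL-18 receptor was tested.

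Among 16 genes of IL-1 receptor signalling, 4 rose and 4 fell, with a median log2 fold change of 0.0056. That count is near the background, where 20.8% of all genes tested were called higher and 20.0% lower. Kinases of 1 complex moved in opposite directions. IRAK1 had 93.6, 103 and 86.8 CPM in siSF3B6, against 175, 172 and 153 CPM in siNC, a log2 fold change of -0.82 (edgeR adjusted p = 1.71e-05). IRAK4, the kinase that activates IRAK1, fell by 0.80 on the log2 scale (adjusted p = 3.24e-05). IRAK2 rose by 0.62 (adjusted p = 8.27e-05), and TRAF6, the ubiquitin ligase downstream of the IRAKs, by 0.66 (adjusted p = 0.000106). The shared adaptor MYD88, named here for its role after its values were seen, had a log2 fold change of -0.08 (adjusted p = 0.405). With siNC replicate 3 as sole control fewer genes of this list were called in either direction, and fewer over all genes tested as well.

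Of 23 inflammasome sensors and regulators, 14 were tested, 8 rose and 3 fell, beside 20.8% higher and 20.0% lower over all genes tested. The median log2 fold change was 0.44, against 0.00093 over all genes tested. This list was chosen with earlier results of these data known, so it is no independent evidence of a direction. PANX1, a channel that releases ATP, had 45.4, 46.4 and 51.1 CPM in siSF3B6, against 22.4, 24.4 and 23.2 CPM in siNC, a log2 fold change of 1.03 (edgeR adjusted p = 3.26e-06). CARD16, a CARD-only near-copy of the CASP1 prodomain, had a log2 fold change of 0.83 (adjusted p = 0.000525), and how counting split its reads from those of CASP1 is not known. The interferon-inducible GTPases GBP1 (0.72, adjusted p = 8.34e-05) and GBP5 (0.78, adjusted p = 0.009) rose as well. Of the sensors, chosen after their values were seen, AIM2, which binds cytosolic DNA, rose by 0.43 on the log2 scale (adjusted p = 0.00817). NLRP3, the best-studied sensor, was scarce, at 0.510 to 0.784 CPM in siSF3B6 and 0.863 to 1.18 CPM in siNC, without overlap, and did not pass (adjusted p = 0.0906). NLRP1 had a log2 fold change of -0.07 (adjusted p = 0.633). CARD8 fell by 0.46 (adjusted p = 0.00161). With siNC replicate 3 as sole control fewer genes of the list were called in either direction, as over all genes tested. CARD16 and GBP5 were among the calls lost. Other calls of the list were lost as well and are not named. Whether AIM2 and CARD8 kept theirs is not reported here. The number that fell was 1 without siSF3B6 replicate 1 and without siSF3B6 replicate 2. GBP5 was not called with unfiltered log2(FPKM + 1) either (0.11, adjusted p = 0.189). NLRC4, NLRP12, MEFV, CARD17, CARD18, P2RX7 and PSTPIP1 were under the filter, and NLRP6 and PYDC1 had no row in the count table used here.

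Of 8 other caspases, gasdermins and membrane rupture genes, 6 were tested, 2 rose and 0 fell, a called share no higher than the 40.8% over all genes tested. CASP8, the initiator caspase of death receptor signalling, had 41.7, 38.7 and 42.2 CPM in siSF3B6, against 32.7, 31.8 and 31.1 CPM in siNC, a log2 fold change of 0.36 (edgeR adjusted p = 0.0035). The groups did not overlap. With siNC replicate 3 as sole control CASP8 lost its call. Fewer genes of the list rose in that fit, as over all genes tested. CASP5 and GSDMA were under the filter. Of 5 genes tied to IL-1 alpha processing and export, 0 rose and 1 fell (1 rose without siNC replicate 3 and without siSF3B6 replicate 3). The gene that fell was HAX1, by 0.29 on the log2 scale (adjusted p = 0.00867, and 0.117 with siNC replicate 3 as sole control).

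Of 20 textbook IL-1 target genes, 19 were tested, 16 rose and 0 fell, with a median log2 fold change of 0.91. Over all genes tested 20.8% rose, and the median was 0.00093. This list is shared with other inflammatory stimuli, and its leading genes were known to be higher in these libraries when it was written, so it is no independent evidence of a direction. The 4 largest changes were in the chemokines CXCL8 (2.80), CXCL1 (1.97) and CXCL2 (1.70) and the prostaglandin synthase PTGS2 (1.87). CXCL8 had 123, 127 and 140 CPM in siSF3B6, against 21.4, 18.1 and 16.8 CPM in siNC. MMP3 was under the filter, and the genes that did not pass were IL6 (log2 fold change 0.07), LIF (-0.05) and CSF3 (0.25).

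**Figure D4:**
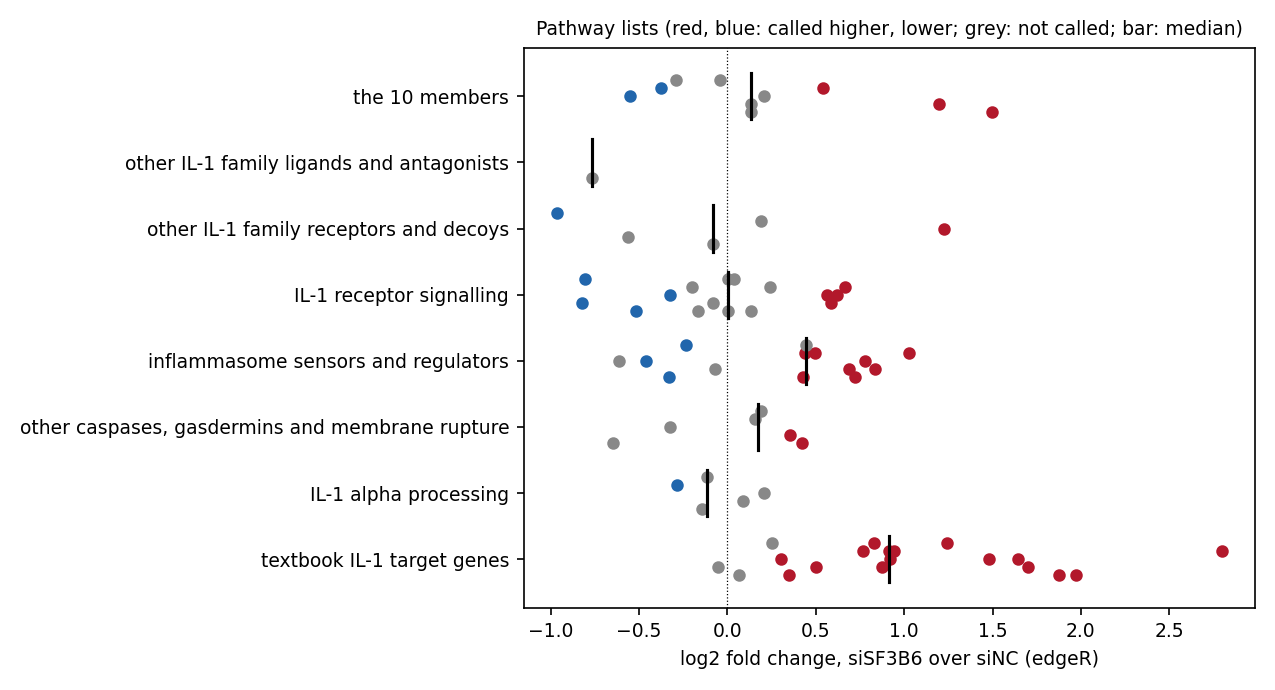
Log2 fold changes (siSF3B6 over siNC, edgeR) of every tested gene of the 10 members and the 7 further lists; red and blue points were called higher and lower, grey points were not called, and black bars are list medians. Signalling genes spread to both sides of 0 around a median of 0.0056, whereas the textbook IL-1 targets lie mostly to the right around 0.91.

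Among 11299 genes of at least 5 CPM, the profiles over the 6 libraries nearest to that of IL1A, by root mean square difference of centred log2 CPM, were CTA-29F11.1 (0.105), CD274 (0.166), SCG2 (0.171), NR4A2 (0.181) and ARRDC3 (0.186). Nearest to GSDMD were PHYHD1 (0.0234), TOMM40 (0.0247), PHKG2 (0.0247), ERAL1 (0.0249) and TALDO1 (0.0275). IL1A and GSDMD were used because they had the largest called rise and the largest called fall of the 10. The genes nearest to IL1A had log2 fold changes of 1.17 to 1.36, each smaller than the 1.50 of IL1A. The distances are descriptions of 6 libraries in 2 groups, and IL1A profiles carry more counting noise.

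**Figure D5:**
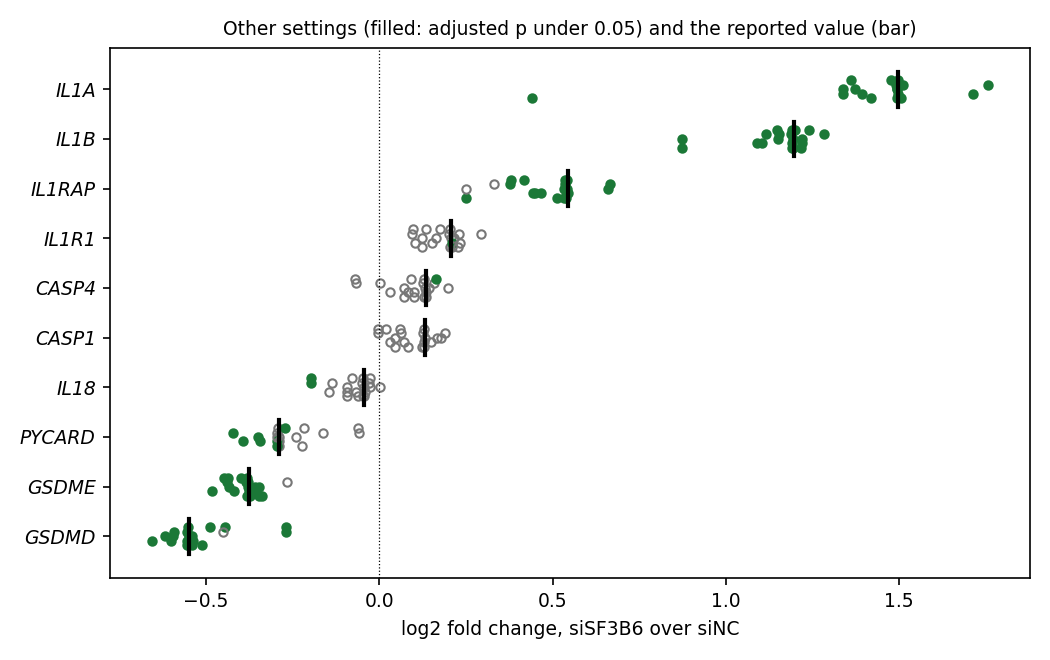
Log2 fold changes of the 10 genes under every other processing setting (points; filled green where the adjusted p was under 0.05, open where it was not) and the reported value (black bar). IL1B and IL1A stay filled throughout, with the lowest IL1A point at 0.44 from log2(FPKM + 1); IL1RAP, GSDMD and GSDME each hold at least 1 open point, and PYCARD is split between filled and open.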

How the data were processed

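The authors deposited raw counts of reads for 39323 genes. The FPKM values were deposited by the authors for 39210 genes. The submitters' processing notes list HISAT2, DESeq2 and hg38. Which counter, strand setting and annotation were used is not given in the sources used here. Libraries were strand-specific per the labels' protocols. Groups and replicate numbers came from the sample titles. The cell line field counts upward from MDA-MB-231 across samples, and the titles, which all name MDA-MB-231, were used.

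The main test was run in edgeR 4.0.16 (R 4.3.3): filterByExpr, TMM factors, the quasi-likelihood test without a block, and Benjamini-Hochberg adjustment over 16869 genes. Each SE was derived from the F statistic and the fold change, and 95% intervals use the t distribution of that fit. The test was checked on counts simulated from the fitted spread, with a small share of genes changed. No simulated library stood apart from its group, so the check does not cover a library such as siNC replicate 3. Levels are CPM with TMM factors, or FPKM as deposited. Exact two-sided permutation tests of the CPM of the 10 genes gave p between 0.1 and 0.6. The members, pathway lists and naming rule were chosen with earlier results of these data known. The FPKM ratio pairs, the stricter kappa-B motif and the GC and length offset were added after the data had been seen. The naming rule took all 10 members, SF3B6, up to 4 called genes of at least 1 CPM per pathway list, and 5 nearest profiles for 2 members. Positions, overlaps, length and GC content came from GENCODE 29 (length and GC for 98.9% of genes tested), promoter windows from RefSeq (GRCh38.p14). Protein sequences were not used here, so the planned comparison of cleavage sites was not made. A gene of the pathway lists that the naming rule took is not reported here. Alternatives included DESeq2 1.42.0 and limma 3.58.1.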

Additional observations from a re-analysis of the deposited data

How the results depend on the processing

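IL1A and IL1B kept their direction and call under every alternative run, with log2 fold changes of 0.44 to 1.76 (18 alternatives) and 0.87 to 1.28 (20). IL1A was dropped by the filter of 0.5 mean FPKM. The reported fit called 3 of the 10 genes higher and 2 lower, and the alternatives 2 to 4 and 0 to 3. With siNC replicate 3 as sole control, 2 were higher and 0 lower. With log2(FPKM + 1) or log2(FPKM + 0.1) and the filter, 2 were higher and 3 lower. Leaving out single libraries gave 3 higher throughout and 2 to 3 lower. IL1RAP lost its call with siNC replicate 3 as sole control and with unfiltered log2(FPKM + 1) (0.25, adjusted p = 0.158), and GSDMD and GSDME with that sole control. PYCARD gained a call in 7 of 20 alternatives, IL18 in 2, IL1R1 and CASP4 in 1 each. Directions turned for IL18 without siNC replicate 3 (0.0017, in a range of -0.078 to 0.0017 over single libraries left out), and with the GC and length offset for CASP1 (-0.0043, or -0.0051 with the replicate block) and CASP4 (-0.068, or -0.069 with the block). None of these 5 values was called. The cause was not tested.

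With the replicate number as a block, 4 were higher and 3 lower, IL1R1 (0.21, adjusted p = 0.0298) and PYCARD (-0.30, adjusted p = 0.0444) being added. More genes were called over the whole table in that fit too, at 4047 higher and 4005 lower of 16869. The deviations of same-numbered libraries correlated at 0.04, 0.106 and 0.136 across genes, so the numbers were not taken to pair the samples, although each library correlated best with its own number. Libraries numbered 1 and 2 alone gave 4 higher and 3 lower. The share called over all genes is not given here for that fit, the single-library fits or the filtered FPKM fits. Scaling by library size only moved the median of all genes to -0.10 and called 2459 genes higher and 4558 lower. The number of genes called over the whole table was 3509 higher and 3380 lower, against 1178 and 1293 with siNC replicate 3 as sole control, and 1561 and 2256 with unfiltered log2(FPKM + 1). Across alternatives the other ligands and antagonists had 0 higher and 0 to 1 lower, the other receptors 1 and 1 to 2, the IL-1 alpha processing genes 0 to 1 and 0 to 2, the inflammasome list 4 to 8 higher and 1 to 4 lower, the signalling list 2 to 5 and 2 to 6, the other caspases and gasdermins 0 to 3 and 0 to 1, and the IL-1 targets 12 to 16 and 0. Low counts widen the errors of IL1A, with 17 to 63 reads per library, and of scarce list genes such as IL1RN and NLRP3.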
